A study of Mus musculus with 18 samples.

Results

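The change that the cytokine TGF-b1 made in the transcriptome of mouse preadipocytes was measured as 3 libraries of TGF-b1-treated cells set against 3 libraries of mock-treated cells, 6 of the 18 libraries of the series. Both groups were primary preadipocytes, the fat cell precursors, of the white adipose depot labelled eWAT of wild-type mice on a control diet (CD), and poly(A) RNA was sequenced. The libraries were chosen by their labels and not by a measured value. Further groups of wild-type cells with 3 libraries each entered the fit to estimate the spread, namely TGF-b1 with SB431542 (a blocker of the type I TGF-b receptor kinase) on control diet and mock on high-fat diet (HFD). Dose, duration and the age and sex of the mice were not given in the sources used here. Replicates may be separate animals, separate cultures or repeat libraries, since no label says which, and p-values thus cover the spread among libraries only, which may be technical.

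TGF-b1 binds a pair of transmembrane receptor kinases that phosphorylate Smad2 and Smad3, which enter the nucleus with Smad4 and act on target genes together with other transcription factors. In connective tissue cells it is best known for turning fibroblasts into contractile, matrix-producing myofibroblasts. In adipose tissue it holds back the differentiation of preadipocytes, and the pathway is controlled by its own ligand traps, inhibitory Smads and related ligands such as activins and bone morphogenetic proteins.

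Libraries held 12235288 to 16130926 counts with TGF-b1 and 11154426 to 13846872 counts in CD mock. Levels are in CPM (counts relative to the TMM-scaled library total), and log2 fold changes of TGF-b1 over CD mock carry their SE. Calls required an adjusted p below 0.05 in the quasi-likelihood test of edgeR over all 14078 genes tested, and every gene given with values below as higher or lower was called unless stated otherwise. Replicates lay close together: genes of at least 100 CPM in both groups varied by a median of 1.65% (CV) with TGF-b1 and 1.72% in CD mock. Scaling by total counts in place of TMM moved the median change over all genes to -0.16 log2, against -0.02 log2 with TMM, so changes are read relative to that scaling. Rn45s, the ribosomal RNA precursor, which is not polyadenylated, had 8499 CPM with TGF-b1 and 4778 CPM in CD mock, and its part in other results was not tested. It was singled out after its values were seen.

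The label was checked against cell type markers. All 14 markers of preadipocytes and fibroblasts were detected in both groups, of which 2 (Col1a1 and Pdgfrb) were higher and 12 lower with TGF-b1, 8 of the 12 by at least 2-fold. The 6 adipocyte markers tested were all lower, with a summed level of 44.3 to 46.8 CPM with TGF-b1 and 176 to 181 CPM in CD mock. Macrophage, endothelial, mesothelial and pericyte markers were also present. The summed level of the 9 mesothelial markers was 687 to 702 CPM with TGF-b1 and 2486 to 2515 CPM in CD mock, and that of the 9 endothelial markers was 176 to 180 CPM with TGF-b1 and 381 to 395 CPM in CD mock. Of these 9 endothelial markers 8 were lower, 7 by at least 2-fold. Kdr was higher, at 103 CPM with TGF-b1 and 66.0 CPM in CD mock. The 10 macrophage markers summed to 556 to 572 CPM with TGF-b1 and 509 to 521 CPM in CD mock. Lyz2 alone held 384 CPM with TGF-b1 and 307 CPM in CD mock, and of the 10 markers 2 were higher and 4 lower. Of the defining lymphocyte markers none reached the level of testing. Fewer cells of a type and less RNA per cell cannot be told apart in such bulk libraries.

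Most genes were called, but large changes were mostly decreases. Replicate libraries differed by little more than counting noise, with a chi-square over degrees of freedom of 1.15 to 1.20 per pair. The count of called genes thus includes small changes, and 2542 genes were called when a change beyond 1.5-fold was tested. Of the 14078 genes, 9517 were called (67.6%), 4705 higher (33.4%) and 4812 lower (34.2%) with TGF-b1. A change of 2-fold or more was called in 2086 genes (14.8%), of which 505 were higher (3.59%) and 1581 lower (11.2%). Counts of called members in the lists below are to be read beside these shares. A count near them is no result about its list. The imbalance grew with size: 53 genes were called higher by at least 3 log2 units and 256 lower, although 118 of the genes lower by at least 2-fold had at most 3 counts in a group, where a fold change is not reliable. The share of higher among called genes, 49.4%, was 31.4% with scaling by total counts. In 1929 genes the 95% interval of the change lay within 0.2 log2 of 0. In 9772 genes (69.4%) all libraries of one group lay above all of the other. Most genes named below were chosen to show such a separation, so it is part of their choice and no result about them.

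The imbalance differed by expression level. Among genes with a mean under 1 CPM, 5.97% were higher and 37.4% lower by at least 2-fold, whereas among those at 100 CPM or more the shares were 3.73% higher and 4.36% lower. A gene can pass the count filter through 1 group of the fit alone, so among low genes it favours those with large folds. A fit of the 6 libraries alone called 470 genes higher and 1359 lower by at least 2-fold, against 505 and 1581. No gene had at most 3 counts over the CD mock libraries and at least 100 over the TGF-b1 libraries. The reverse held for 10 genes, among them Cfd, which encodes the adipocyte protease adipsin, Pgr, the progesterone receptor gene, Pnoc, which encodes a neuropeptide precursor, and Trim63, a muscle ubiquitin ligase gene with 0 counts with TGF-b1. These genes were named after their values were seen. Abundant genes showed the other side: the 10 largest gains added 43808 CPM, while the 10 largest losses came to -12879 CPM. The genes with the largest gains included Thbs1 (thrombospondin), Col1a1, Lox (the collagen crosslinking enzyme) and Acta2 (smooth muscle actin), with Thbs1 at 8532 ± 57.7 CPM with TGF-b1 and 2465 ± 20.7 CPM in CD mock (SD, n = 3 each).

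**Figure D1:**
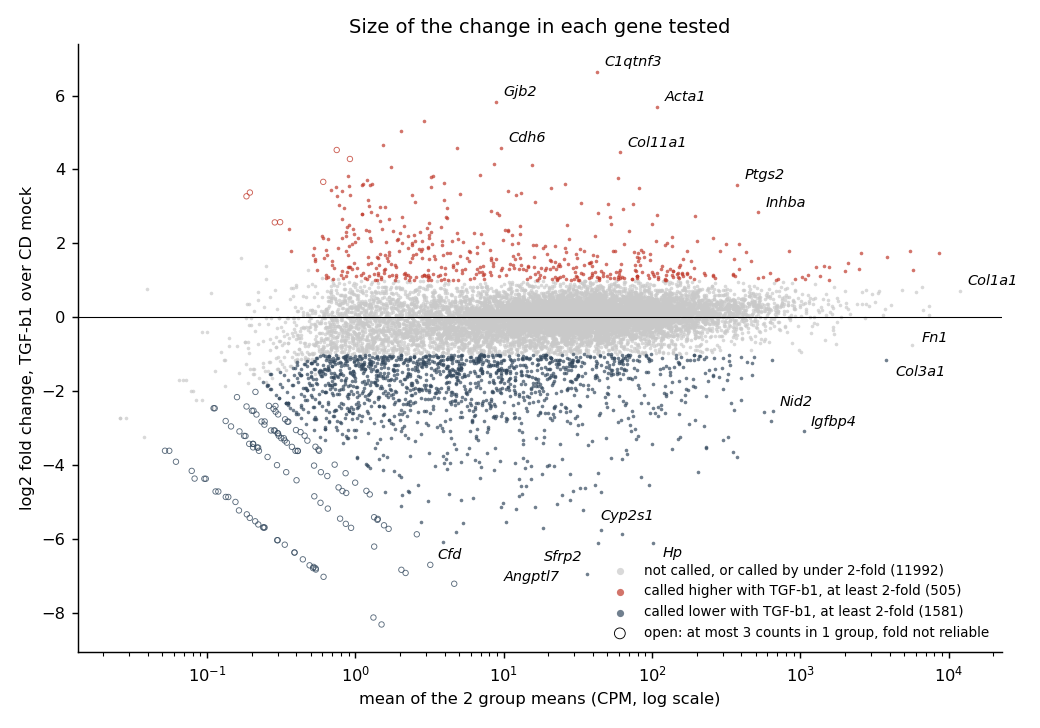
Log2 fold change of TGF-b1 over CD mock (vertical axis) against the mean of both group means in CPM (horizontal log axis) for the 14078 genes tested, with red for genes called higher and blue for genes called lower by 2-fold or more. The 505 red points are outnumbered by 1581 blue points, most of them below 10 CPM, and open circles mark genes with at most 3 counts in a group, whose folds are not reliable.

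Among well expressed genes the strongest increases included membrane and secreted proteins. C1qtnf3 (chr15:10952332-10980163 on mm10), which encodes a secreted relative of adiponectin, had 85.02, 84.1 and 84.4 CPM with TGF-b1, against 0.791, 1.06 and 0.5997 CPM in CD mock. Gjb2, the gap junction protein connexin 26, had 17.9, 18.2 and 16.4 CPM with TGF-b1, against 0.439, 0.142 and 0.343 CPM in CD mock. The log2 fold changes were 6.65 ± 0.11 in C1qtnf3 and 5.83 ± 0.22 in Gjb2. Htr2b, a serotonin receptor gene, averaged 16.3 CPM with TGF-b1 and 0.921 CPM in CD mock, and Erfe, which encodes the iron-regulating hormone erythroferrone, averaged 47.6 CPM with TGF-b1 and 3.88 CPM in CD mock. Cthrc1, a secreted collagen triple helix repeat protein, was 13.7-fold higher, at 110.1 ± 2.36 CPM with TGF-b1 and 8.07 ± 0.379 CPM in CD mock. The membrane protein gene Tmem59l completed the 10 largest increases together with Acta1, Cdh6, Col11a1 and Il11, described below.

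The strongest decreases included secreted proteins and enzymes. Angptl7, a secreted angiopoietin-like protein, had 0.426, 0.532 and 0.742 CPM with TGF-b1, against 73.9, 72.2 and 70.6 CPM in CD mock, a log2 fold change of -6.93 ± 0.12. Hp, which encodes the hemoglobin-binding plasma protein haptoglobin, had 2.900, 2.75 and 3.03 CPM with TGF-b1, against 200.02, 195 and 206 CPM in CD mock. That the libraries did not overlap was part of the choice of both genes, and 69.4% of all genes showed it. Cyp2s1 (a cytochrome P450), Megf6 (a protein with EGF-like domains), Fmo2 (a flavin monooxygenase), Draxin and Dpysl5 (axon guidance proteins) and Eef1a2 (a tissue-restricted translation elongation factor) were also among the 10 largest decreases, with log2 fold changes of -5.86, -5.75, -5.196, -5.54, -5.19 and -5.698.

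Ligands of the TGF-b family itself moved in both directions. Of 20 ligand genes tested, 7 were higher and 6 lower with TGF-b1, 2 and 4 of them by at least 2-fold. The counts of 7 and 6 lie near the shares of all genes, 33.4% higher and 34.2% lower. Inhba, which encodes the subunit of activin A, had 908, 909.8 and 905 CPM with TGF-b1, against 129.5, 127 and 123 CPM in CD mock. Inhbb, which encodes the related subunit of activin B, moved the opposite way, with 49.3, 49.1 and 50.97 CPM with TGF-b1, against 339.9, 339.9 and 339.8 CPM in CD mock. The changes were 2.84 ± 0.019 log2 in Inhba and -2.77 ± 0.027 log2 in Inhbb. Tgfb1 itself averaged 202 ± 6.14 CPM with TGF-b1 and 107 ± 1.78 CPM in CD mock, and Gdf6 was higher by 1.16 ± 0.027 log2. Gdf10 and Bmp4, both bone morphogenetic protein relatives, were lower, at -4.02 and -2.003 log2.

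Among 17 receptor and co-receptor genes, 7 were higher and 10 lower, against 33.4% higher and 34.2% lower of all genes. Decreases included Tgfbr3, the co-receptor betaglycan, with 62.8 CPM with TGF-b1 and 269 CPM in CD mock, and Acvr1b, an activin type I receptor, with 18.6 CPM with TGF-b1 and 52.1 CPM in CD mock. Bmpr1b, a BMP type I receptor, rose to 19.4 CPM with TGF-b1, against 7.77 CPM in CD mock. Secreted antagonists and latent binding proteins were mostly higher, 10 of 17 with 3 lower, and 5 of the 10 by at least 2-fold. They included Ltbp1, which stores latent TGF-b in the matrix (1.76 log2) and Fstl3, an activin trap (1.52 log2), while Twsg1 was lower, at -1.07 log2. Inside the cell, Pmepa1, a feedback inhibitor of Smad signalling, averaged 666 CPM with TGF-b1 and 196 CPM in CD mock, the inhibitory Smad7 was higher by 0.705 ± 0.032 log2, and Smad3, a transducer of the signal, averaged 60.6 ± 3.32 CPM with TGF-b1 and 136 ± 2.32 CPM in CD mock.

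Wnt ligands were mostly higher and Wnt antagonists mostly lower. Wnt proteins are secreted ligands of Frizzled receptors, and secreted Frizzled-related proteins bind them outside the cell. Of 9 Wnt ligands tested, 6 were higher, 5 of them by at least 2-fold, and 2 were lower, both by at least 2-fold. Among all genes 3.59% were higher and 11.2% lower by at least 2-fold. Wnt11 had 30.3, 29.8 and 29.4 CPM with TGF-b1, against 10.4, 9.06 and 7.88 CPM in CD mock, and Wnt9a and Wnt2 were higher by 1.39 and 1.28 log2. Wnt4 ran against them, with 8.699, 9.31 and 9.71 CPM with TGF-b1, against 90.3, 90.3 and 86.1 CPM in CD mock.

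Of 14 Wnt antagonists and feedback genes tested, 11 were lower and 3 higher, and 10 were lower by at least 2-fold against 11.2% of all genes. Sfrp2, a secreted Frizzled-related protein, had 1.45, 0.887 and 1.35 CPM with TGF-b1, against 82.3, 91.7 and 82.8 CPM in CD mock. Frzb, of the same protein family, and Nkd1, an intracellular feedback inhibitor, were lower, at -2.69 and -2.07 log2. The feedback targets Axin2, Notum and Apcdd1 were among the members lower by at least 2-fold, and Lef1, a transcription factor of the pathway, was the 1 member higher by at least 2-fold. Wnt receptors had 9 higher and 5 lower of 17, but their median of 0.10 log2 turned to -0.04 with scaling by total counts. Within them Fzd2 averaged 199 CPM with TGF-b1 and 100.4 CPM in CD mock and Fzd1 62.8 CPM with TGF-b1 and 165 CPM in CD mock.

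In other growth factor families, single ligands moved in opposite directions. In the EGF family, whose median of 0.09 log2 was -0.06 with scaling by total counts, Hbegf had 86.05, 98.5 and 86.6 CPM with TGF-b1, against 14.5, 12.9 and 13.9 CPM in CD mock, Nrg1, a neuregulin, averaged 21.3 CPM with TGF-b1 and 4.45 CPM in CD mock, and Ereg averaged 20.97 CPM with TGF-b1 and 8.02 CPM in CD mock. Tgfa, a further ligand of the EGF receptor, went the other way at 3.92 CPM with TGF-b1 and 14.9 CPM in CD mock. Among fibroblast growth factors and their receptors, 7 of 13 were lower, 6 of them by at least 2-fold, against 34.2% and 11.2% of all genes. Fgf1 was at -2.92, Fgf10 at -1.73 and Fgf7 at -1.58 log2, while Fgf2 was higher by 0.75 log2.

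Vascular growth factors also moved in both directions. Vegfc, a lymphatic growth factor, averaged 46.6 CPM with TGF-b1 and 15.3 CPM in CD mock, whereas its relative Vegfd had 39.7, 34.05 and 36.5 CPM with TGF-b1, against 416, 421 and 431 CPM in CD mock, a log2 fold change of -3.52 ± 0.031. The stem cell factor receptor Kit was lower, at -2.71 log2 and the endothelial receptor Tie1 at -2.52 log2, beside the lower endothelial markers given above, whose part in these decreases was not tested. The neurotrophin Bdnf was higher, at 34.96 ± 2.05 CPM with TGF-b1 and 9.14 ± 0.689 CPM in CD mock, and Mdk (midkine) was lower, at -1.86 log2.

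In the interleukin 6 family, 7 of 17 genes were higher and 7 lower, against 33.4% higher and 34.2% lower of all genes. Il11, a cytokine studied in tissue fibrosis, had 13.1, 14.1 and 11.5 CPM with TGF-b1, against 1.14, 0.637 and 0.942 CPM in CD mock. Lif, which like Il11 signals through the shared receptor chain gp130, averaged 195 ± 3.09 CPM with TGF-b1 and 50.5 ± 2.26 CPM in CD mock. On the receiving side, Il6st, which encodes gp130, averaged 326 CPM with TGF-b1 and 601 CPM in CD mock, Lifr 15.8 CPM with TGF-b1 and 39.4 CPM in CD mock and the feedback inhibitor Socs3 28.9 CPM with TGF-b1 and 77.4 CPM in CD mock.

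The insulin-like growth factor axis showed a protease and its substrate moving apart. Pappa, the metalloprotease that cleaves the binding protein IGFBP4, had 131, 138 and 132 CPM with TGF-b1, against 15.1, 16.8 and 15.8 CPM in CD mock. Igfbp4 had 227, 219 and 220.3 CPM with TGF-b1, against 1887, 1876 and 1879.6 CPM in CD mock. The changes were 3.06 ± 0.051 log2 in Pappa and -3.08 ± 0.013 log2 in Igfbp4. Igfbp5 was lower, at -3.43 log2 and Igfbp2 higher by 1.201 log2. Stanniocalcins, which inhibit that protease, also split, with Stc1 at -4.77 log2 and Stc2 at 1.12 log2.

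Inflammatory and lipid mediators were mostly lower. Of 24 chemokines, 18 were lower and 3 higher, and 15 were lower by at least 2-fold, against 34.2% of all genes lower and 11.2% lower by at least 2-fold. Cxcl5, a neutrophil attractant, averaged 0.205 CPM with TGF-b1 and 10.4 CPM in CD mock, and Ccl9 and Ccl6 were lower, at -2.86 and -2.31 log2. Cxcl14 was an exception at 1.09 log2. Against this background Ptgs2, the inducible prostaglandin synthase, had 685, 691 and 694 CPM with TGF-b1, against 55.5, 57.4 and 58.9 CPM in CD mock. Enpp2, which encodes autotaxin, the enzyme that makes lysophosphatidic acid, was lower, at -4.36 log2. In the angiotensin system the precursor Agt and the converting enzyme Ace were both lower, Agt at 2.36 ± 0.271 CPM with TGF-b1 and 37.8 ± 2.12 CPM in CD mock and Ace at 7.16 ± 0.781 CPM with TGF-b1 and 98.5 ± 1.27 CPM in CD mock.

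Notch and axon guidance genes completed the signals. Jag1, a Notch ligand, averaged 201 ± 0.516 CPM with TGF-b1 and 49.4 ± 2.28 CPM in CD mock, and the target Hes1 was higher by 1.27 log2. Of the 19 Notch genes tested 11 were lower and 3 higher, against 34.2% lower and 33.4% higher of all genes. Those lower included Dll4, a ligand of endothelial cells, at -3.27 log2, Nrarp at -2.899 log2 and Dlk1, the preadipocyte factor, at -2.42 log2. Gas1, a cell surface protein that binds hedgehog ligands, fell to 27.8 CPM with TGF-b1, against 270.5 CPM in CD mock. Of 29 semaphorins, plexins and neuropilins, 21 were lower, 12 of them by at least 2-fold, and 4 were higher with none reaching 2-fold. Sema3g, Plxna2 and Sema3f led the decreases at -2.53, -2.03 and -1.94 log2, and Nrp2 was the largest increase at 0.59 log2. In the Slit family Slit2 averaged 191 CPM with TGF-b1 and 101 CPM in CD mock and Slit3 239.6 CPM with TGF-b1 and 699 CPM in CD mock.

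**Figure D2:**
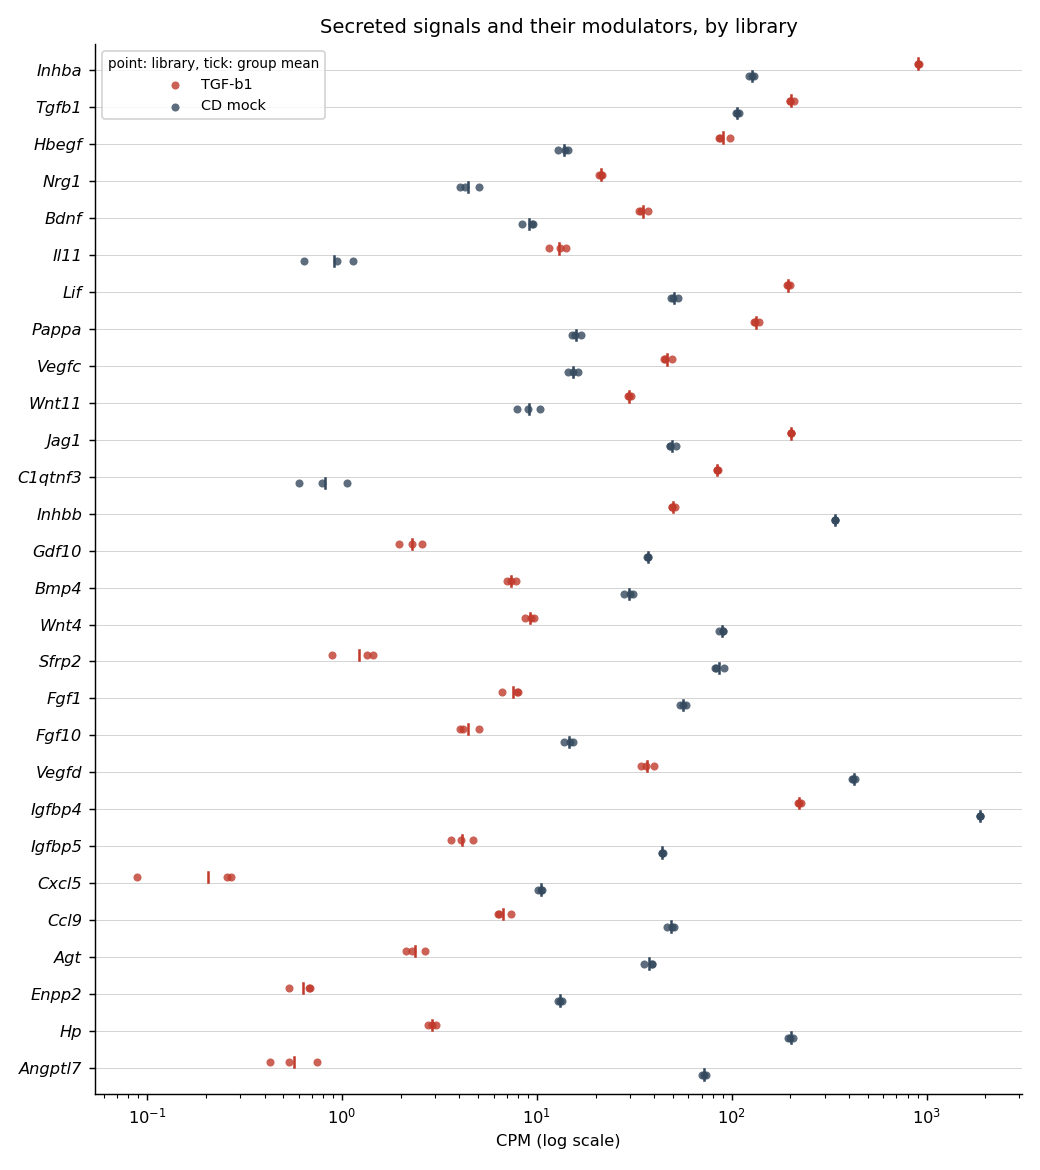
CPM in each library (points, log axis) and group means (ticks) for 28 secreted signals and their modulators, TGF-b1 in red above CD mock in blue for each gene. The first 12 genes, led by Inhba at 908 CPM with TGF-b1 against 127 CPM in CD mock, are higher with TGF-b1 and the other 16 lower; genes were drawn from those named for having no overlap between libraries.

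Cadherin genes showed some of the largest changes of adhesion genes. Cadherins join neighbouring cells, each type mostly binding its own kind. Cdh6 had 20.2, 18.5 and 16.5 CPM with TGF-b1, against 1.14, 0.778 and 0.343 CPM in CD mock. Cdh10 averaged 9.34 CPM with TGF-b1 and 0.378 CPM in CD mock, increases of 4.59 ± 0.19 log2 for Cdh6 and 4.59 ± 0.26 log2 for Cdh10. Cdh13, the endothelial Cdh5 and Cdh3 were lower, at -2.71, -2.53 and -1.102 log2. Of 50 protocadherins, 31 were lower and 7 higher, 18 and 2 of them by at least 2-fold, against 11.2% and 3.59% of all genes by at least 2-fold. The clustered protocadherins share exons, and reads may have been divided among them. Pcdh18, which stands outside the clusters, averaged 51.4 CPM with TGF-b1 and 14.3 CPM in CD mock.

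Claudins, the sealing proteins of tight junctions, were lower in 5 of 6 genes, all 5 by at least 2-fold. Cldn15 averaged 7.13 ± 1.096 CPM with TGF-b1 and 72.1 ± 2.04 CPM in CD mock and Cldn3 1.16 ± 0.196 CPM with TGF-b1 and 26.9 ± 1.49 CPM in CD mock, beside the lower mesothelial and endothelial markers, whose part was not tested. The water channel Aqp5 averaged 26.97 CPM with TGF-b1 and 79.1 CPM in CD mock. Potassium channels were lower in 18 of 35 and higher in 5, with the background channel Kcnk2 at 1.997 log2 and Kcna1 at -4.02 log2. The stretch-activated channel Piezo2 averaged 148 ± 3.03 CPM with TGF-b1 and 45.1 ± 1.25 CPM in CD mock. Of 234 solute carriers 84 were higher and 83 lower, shares close to the 33.4% and 34.2% of all genes, and 59 and 105 with scaling by total counts. By at least 2-fold 6 were higher and 30 lower, against 3.59% and 11.2% of all genes. The arginine and lysine transporter Slc7a3 was higher by 2.34 log2, Slc7a7 by 1.94 log2 and the large neutral amino acid transporter Slc7a5 by 0.85 log2.

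The genes of striated muscle that could be tested were mostly higher. Of 26 sarcomere and striated muscle genes tested, 15 were higher and 5 lower, and 10 were higher by at least 2-fold against 3.59% of all genes. Acta1 (chr8:123891758-123894776 on mm10), the skeletal muscle actin, had 215, 211 and 212 CPM with TGF-b1, against 5.01, 3.04 and 4.45 CPM in CD mock, a log2 fold change of 5.698 ± 0.065. Its coding sequence is close to that of Acta2, and the division of reads between such copies was not given in the sources used here. Ankrd1, a mechanically responsive repeat protein of muscle, had 215, 212 and 217 CPM with TGF-b1, against 59.6, 54.8 and 55.6 CPM in CD mock, and Fhl2, a LIM protein, averaged 187 CPM with TGF-b1 and 75.5 CPM in CD mock. Libraries without overlap were a condition for naming these genes. Xirp2, Myl7, Tnnt2, Tnnc1, Actc1, Jph2 and Synpo2l were the other members higher by at least 2-fold. The list held 61 names, of which 43 were in the table, and 17 of these 43 were not tested. Among the 17 were titin (Ttn) and the troponin genes Tnni1, Tnni2 and Tnnt3. Of 9 skeletal muscle markers only Des and Acta1 were tested, and both were higher. The markers Ckm, Myog, Myod1 and Myh4 were not in the table.

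**Figure D3:**
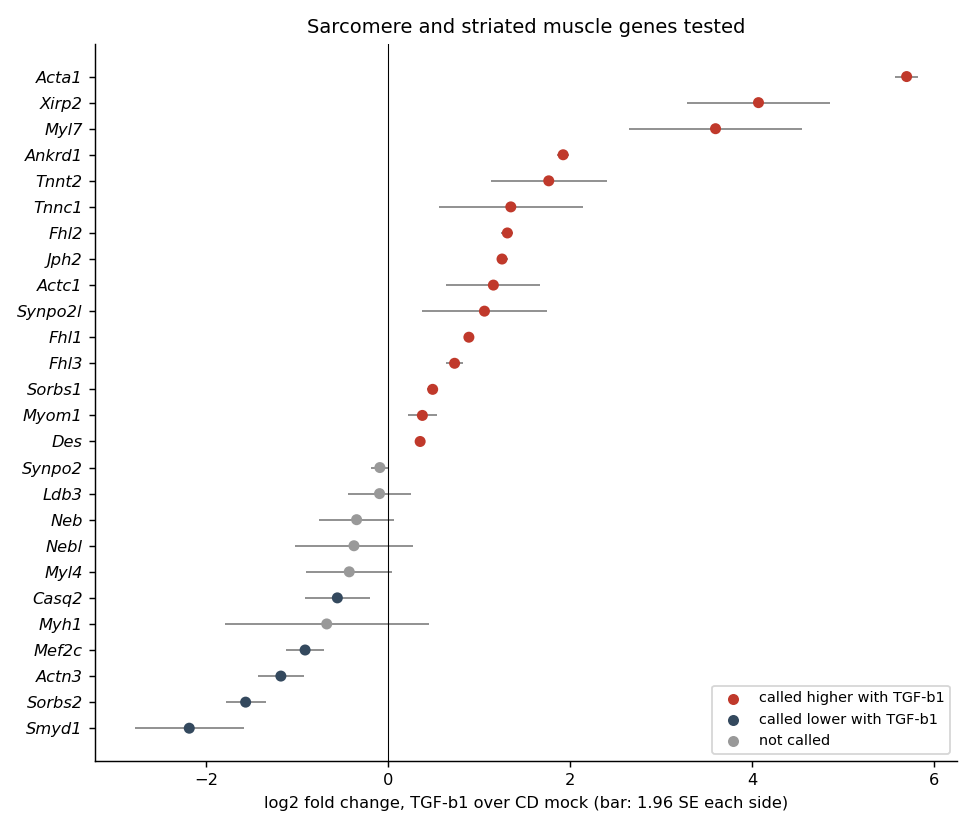
Log2 fold change of TGF-b1 over CD mock (horizontal axis, bars: 95% interval) for the 26 sarcomere and striated muscle genes tested, with red for called higher, blue for called lower and grey for not called. Acta1 stands alone at 5.70, and 15 genes lie to the right of 0 in red against 5 in blue.

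The promoters of Acta1 and Ankrd1 are shown for the letters that muscle transcription factors are known to bind, and that of Il11 for an AP-1 motif (RefSeq, GRCm38.p6, the build of mm10; 250 bases upstream of the start, 5′ to 3′). Capitals mark the CArG box, the binding motif of serum response factor, the TEAD motif GGAATG and the AP-1 motif TGANTCA on either strand. Acta1 lies at chr8:123894776-123895025, minus strand, Ankrd1 at chr19:36119845-36120094, minus strand, and Il11 at chr7:4778142-4778391, minus strand.
Acta1: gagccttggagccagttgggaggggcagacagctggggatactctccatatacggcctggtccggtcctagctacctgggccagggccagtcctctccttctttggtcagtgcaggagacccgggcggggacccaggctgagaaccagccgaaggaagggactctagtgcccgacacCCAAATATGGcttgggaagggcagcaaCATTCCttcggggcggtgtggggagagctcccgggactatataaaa
Ankrd1: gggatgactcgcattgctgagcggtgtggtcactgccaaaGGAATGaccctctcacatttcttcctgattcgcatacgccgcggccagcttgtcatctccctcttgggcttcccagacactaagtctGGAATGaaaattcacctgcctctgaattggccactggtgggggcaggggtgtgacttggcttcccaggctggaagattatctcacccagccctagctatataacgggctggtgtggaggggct
Il11: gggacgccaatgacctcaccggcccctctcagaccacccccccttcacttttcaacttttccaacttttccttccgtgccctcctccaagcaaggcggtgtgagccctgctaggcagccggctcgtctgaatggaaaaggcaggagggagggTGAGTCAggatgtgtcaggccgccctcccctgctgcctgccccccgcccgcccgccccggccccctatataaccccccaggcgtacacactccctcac
Acta1 held a CArG box 73 to 64 bases before its start and a TEAD motif 46 to 41 bases before it, Ankrd1 held 2 TEAD motifs, and Il11 held an AP-1 motif 98 to 92 bases before its start. Windows were printed only where they held such a motif, so these matches are part of the choice. The Il11 window counted below is a different one, without an AP-1 motif.

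The same letters were counted over 1 window of 250 bases per gene, on both strands, where RefSeq gave one. The CArG box stood in 2.93% of 376 windows of genes higher by at least 2-fold, in 0.787% of 1143 windows of genes lower by at least 2-fold and in 1.16% of the 11111 windows of all genes tested. The TEAD motif stood in 15.4% of the higher, 12.6% of the lower and 10.6% of all genes. The AP-1 motif was found in 6.65% of the higher, 6.56% of the lower and 4.39% of all genes. The Smad palindrome GTCTAGAC was found in 1 window of the higher (0.266%), 2 of the lower (0.175%) and 20 of all genes (0.18%). These counts are too small to compare the groups. Further motifs were counted in the same way. The CAGA box, also a Smad motif, stood in 0% of the higher, 0.35% of the lower and 0.216% of all genes. The ISRE, a motif of interferon response, stood in 2.93% of the higher, 5.34% of the lower and 2.75% of all genes. For the C/EBP motif the shares were 1.33% of the higher, 1.925% of the lower and 1.32% of all genes. A match describes the letters and is not a measured binding site.

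The rest of the cytoskeleton moved less widely. Tubb3, a tubulin best known from neurons, had 223, 223 and 225 CPM with TGF-b1, against 51.2, 48.2 and 49.8 CPM in CD mock, although the median of the 21 tubulins of 0.15 log2 was -0.0015 with scaling by total counts. Vim (vimentin) averaged 4228 CPM with TGF-b1 and 2582 CPM in CD mock and Plec, which encodes the linker protein plectin, 889 CPM with TGF-b1 and 538 CPM in CD mock. Of 8 keratins 5 were lower and 2 higher, with Krt19 at -1.83, Krt18 at -1.63 and Krt7 at -1.14 log2. Krt19 and Krt18 are themselves among the 9 mesothelial markers, 8 of which were lower, and the part of such cells was not tested. Palld, which encodes the actin-bundling protein palladin, averaged 865 CPM with TGF-b1 and 379 CPM in CD mock.

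Major matrix genes moved in opposite directions. Fn1, the fibronectin gene, had 4251, 4200.4 and 4262 CPM with TGF-b1, against 7131, 7168 and 7112 CPM in CD mock. Col3a1, the type III collagen, had 2354, 2346 and 2341 CPM with TGF-b1, against 5253, 5202 and 5259 CPM in CD mock. These were the largest losses in CPM of all genes, whereas Col1a1 had 14764, 14794 and 14749 CPM with TGF-b1, against 8965, 8963 and 8863 CPM in CD mock. The log2 fold changes were -0.75 ± 0.0070 in Fn1, -1.16 ± 0.0078 in Col3a1 and 0.73 ± 0.0062 in Col1a1. Nid2, which links laminin and collagen in basement membranes, averaged 192 ± 5.68 CPM with TGF-b1 and 1109.97 ± 10.1 CPM in CD mock, and Lama2 was higher by 1.09 log2 while Lamc3 and Lama5 were lower, at -2.89 and -1.39 log2.

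Some cartilage genes rose strongly and others fell. Of 16 tested, 4 were higher and 10 lower, all 4 and 6 of the 10 by at least 2-fold. Among all genes 33.4% were higher and 34.2% lower, 3.59% and 11.2% by at least 2-fold. Col11a1, a minor cartilage collagen, averaged 116 ± 3.297 CPM with TGF-b1 and 5.26 ± 0.883 CPM in CD mock, and Cilp, a protein of the cartilage intermediate layer, 67.2 ± 3.01 CPM with TGF-b1 and 14.7 ± 0.261 CPM in CD mock. Prg4, which encodes the joint lubricant lubricin, was lower, at -2.97 log2. Tendon genes included Col12a1 at 1.38 and Postn (periostin) at 0.83 log2, but Col14a1 was at -2.46 log2. In bone genes Tnfrsf11b (osteoprotegerin) was higher by 1.42 log2 and Alpl (alkaline phosphatase) lower, at -3.196 log2.

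Of 14 small leucine-rich proteoglycans 4 were higher and 7 lower, and of 21 large proteoglycans 8 were higher and 10 lower. Over all genes 33.4% were higher and 34.2% lower. Dcn (decorin), a small leucine-rich proteoglycan that binds collagen and TGF-b, had 162, 169 and 163 CPM with TGF-b1, against 970.5, 969.7 and 993 CPM in CD mock. Lum (lumican) averaged 16.9 CPM with TGF-b1 and 136 CPM in CD mock and Prelp 54.9 CPM with TGF-b1 and 259 CPM in CD mock. In the opposite direction, Cspg4, a large transmembrane proteoglycan also used as a pericyte marker, had 186, 189 and 193 CPM with TGF-b1, against 26.8, 30.3 and 25.9 CPM in CD mock. Of the 7 pericyte and smooth muscle markers, 2 (Cspg4 and Myh11) were higher and 5 lower, 3 of the 5 by at least 2-fold. Vcan (versican) was also higher, at 487 CPM with TGF-b1 and 219.8 CPM in CD mock. Has2, a hyaluronan synthase, had 151, 149 and 149.9 CPM with TGF-b1, against 13.2, 12.8 and 13.96 CPM in CD mock. Of 42 genes of glycosaminoglycan synthesis 21 were higher and 14 lower, or 18 and 17 with scaling by total counts. Xylt1, which starts the sugar chains of proteoglycans, and Hs6st2, a heparan sulfate sulfotransferase, were higher by 2.101 and 1.63 log2.

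Of 20 matrix metalloproteases and their inhibitors, 7 were higher and 13 lower, against 33.4% higher and 34.2% lower of all genes. The count of 7 lies near that share. Mmp3 (stromelysin) had 8.78, 6.56 and 8.16 CPM with TGF-b1, against 183, 182 and 182 CPM in CD mock, and Mmp8 was lower, at -3.32 log2, while the inhibitors Timp3 and Timp1 were higher, Timp3 at 3541 CPM with TGF-b1 and 1427 CPM in CD mock. Mmp9, a gelatinase, was an exception at 7.39 CPM with TGF-b1 and 0.584 CPM in CD mock. Adamts15, a versican and aggrecan protease, averaged 2.76 ± 0.199 CPM with TGF-b1 and 68.3 ± 0.926 CPM in CD mock, and Adamts8 and Adamts6 were higher by 2.24 and 1.51 log2. Of 18 elastic fibre genes 6 were higher, near the share of all genes, and 12 lower, with Mfap4 at 2.54, Ltbp2 at 1.395 and Mfap2 at -2.02 log2.

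Transcription factors of development were among the larger changes. Sox11, a factor of progenitor cells, had 22.7, 25.00 and 24.3 CPM with TGF-b1, against 1.93, 2.69 and 2.31 CPM in CD mock, and its relative Sox8 averaged 16.3 CPM with TGF-b1 and 2.37 CPM in CD mock. The other 9 of the 11 Sox factors tested were lower, including Sox7, Sox17 and Sox18, factors of endothelium, at -2.504, -2.303 and -2.25 log2. Of 28 Hox genes, 16 were higher and 5 lower, and 13 and 5 with scaling by total counts, against 33.4% higher and 34.2% lower of all genes with TMM. Hoxb9, a homeobox gene of trunk position, had 25.7, 32.9 and 29.3 CPM with TGF-b1, against 3.603, 3.89 and 2.48 CPM in CD mock, and Hoxa4 and Hoxa3 were higher by 1.104 and 0.95 log2.

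Among forkhead genes Foxc2 was higher by 1.88 log2 and Foxo6 lower, at -4.08 log2. Basic helix-loop-helix factors were lower in 25 of 36 and higher in 5, with the hypoxia factor Epas1 at -1.97, Mycn at -1.87 and Myc at 0.98 log2. Of all genes 33.4% were higher and 34.2% lower. Of 356 zinc finger genes with a Zfp symbol, 34 were higher and 118 lower, or 16 and 181 with scaling by total counts. The count of 118 lies near the share of all genes. Zfp36l1, an RNA-binding protein that destabilises messages, averaged 46.1 ± 1.99 CPM with TGF-b1 and 201 ± 3.86 CPM in CD mock. Nuclear receptors included Nr4a3 at -2.39 log2 and Pparg, the master factor of adipogenesis, at -0.97 log2. Of the mesenchymal transition factors, Snai2 was lower, at -0.94 log2, as was Prrx1 at -0.59 log2, while Zeb1 at 0.15 log2 was -0.0022 with scaling by total counts.

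Most genes of protein synthesis rose by small amounts. Of 84 cytosolic ribosomal protein genes, 83 were higher and 1 lower (76 and 1 with scaling by total counts), with a median of 0.33 log2 against -0.02 over all genes, and none reached 2-fold. The change also ran with transcript length: the 2816 genes tested of at most 1635 bases, which held 74 of these 84 genes, had a median of 0.09 log2 and the 2816 genes of at least 4841 bases -0.09 log2, and the part of length was not tested. Ribosomal proteins have many processed copies in the genome, so reads may have been lost or shared. Of 55 translation initiation factors 42 were higher and 4 lower (34 and 10 with total counts), and of 37 aminoacyl tRNA synthetases 28 were higher and 2 lower (24 and 2), with Nars at 0.77 and Gars at 0.74 log2. Proteasome subunits were higher in 35 of 46 and lower in 5, but in 13 and 8 with scaling by total counts. Those lower included Psmb8 and Psmb10, subunits of the immunoproteasome, at -1.94 and -0.48 log2.

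Amino acid and polyamine synthesis showed larger changes in single enzymes. Of 28 genes of serine, glycine, one-carbon, proline and asparagine synthesis 18 were higher and 7 lower, against 33.4% and 34.2% of all genes. Mthfd2 and Aldh1l2, mitochondrial enzymes of the folate cycle, were higher by 1.001 and 1.19 log2, Aldh18a1, which makes the precursor of proline, by 0.83 log2, and Glul (glutamine synthetase) was lower, at -1.26 log2. Odc1, the first enzyme of polyamine synthesis, had 545, 556 and 546 CPM with TGF-b1, against 222, 227 and 218 CPM in CD mock, and Ass1, which acts in arginine synthesis, averaged 50.8 CPM with TGF-b1 and 19.2 CPM in CD mock. Nox4, a hydrogen peroxide-producing oxidase, had 94.1, 89.7 and 87.9 CPM with TGF-b1, against 15.99, 15.7 and 15.8 CPM in CD mock. Against it, Mgst1, Gstt1 and Gsta3, enzymes of glutathione conjugation, were lower, at -2.59, -2.31 and -2.26 log2.

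Genes of iron transport moved in opposite directions. Trf, which encodes the iron carrier transferrin, had 20.98, 19.9 and 22.7 CPM with TGF-b1, against 385, 382 and 395 CPM in CD mock, while its receptor Tfrc averaged 205 CPM with TGF-b1 and 96.5 CPM in CD mock. Steap4, a ferrireductase, was lower, at -3.84 log2. In the retinoid pathway, whose median of 0.08 was -0.07 log2 with scaling by total counts, Aldh1a1, which makes retinoic acid, averaged 34.9 ± 1.64 CPM with TGF-b1 and 186 ± 2.51 CPM in CD mock and the receptor Rarb 26.9 ± 1.09 CPM with TGF-b1 and 11.2 ± 0.527 CPM in CD mock.

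Of 39 S phase and mitosis genes, 22 were lower and 7 higher, and none reached 2-fold. Over all genes 34.2% were lower and 33.4% higher. Regulators of entry into the cycle gave larger single changes. Ccnd1 (cyclin D1) averaged 16.9 CPM with TGF-b1 and 50.1 CPM in CD mock and the inhibitor Cdkn2b 38.2 CPM with TGF-b1 and 19.1 CPM in CD mock, while Cdkn1a was higher by 0.73 log2. Of 27 p53 target genes 17 were higher and 6 lower, with the kinase Plk2 at 501 ± 0.693 CPM with TGF-b1 and 126 ± 1.03 CPM in CD mock and the death gene Pmaip1 at 104 ± 1.62 CPM with TGF-b1 and 26.3 ± 2.300 CPM in CD mock.

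Genes of the acute phase, complement and antigen presentation were mostly lower. Of 16 acute phase genes, 15 were lower and 1 was not called, and 14 were lower by at least 2-fold. Among all genes 34.2% were lower, 11.2% by at least 2-fold. Saa3, a serum amyloid A, had 1.45, 1.68 and 2.02 CPM with TGF-b1, against 55.4, 52.8 and 55.00 CPM in CD mock, and Serpina3n was lower, at -4.53 log2. Of 24 complement genes 18 were lower and 4 higher. C4b had 7.93, 7.71 and 8.83 CPM with TGF-b1, against 115, 119 and 118 CPM in CD mock, whereas C1qa, the first of the subunits of C1q, had 40.8, 41.7 and 43.96 CPM with TGF-b1, against 19.2, 19.5 and 20.7 CPM in CD mock, and C1qb and C1qc were higher by 0.37 and 0.59 log2. C1q is made by macrophages, whose markers were called higher in 2 and lower in 4 of 10. C1qa is itself among these markers and is 1 of the 2 called higher, beside Lyz2. The part of such cells was not tested.

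Of 33 MHC genes and genes of antigen processing, 22 were lower, 13 of them by at least 2-fold, and none was higher. The shares of all genes were 34.2% lower and 11.2% lower by at least 2-fold. The class I genes H2-Q6 and H2-Q7 were lower, at -2.38 and -2.16 log2. Of 17 guanylate-binding proteins and immunity-related GTPases, 16 were lower, 14 by at least 2-fold, with Gbp6 at -3.42 log2. Irgm1 was the exception at 0.59 log2. Of 29 pattern recognition receptors and adaptors 23 were lower and 2 higher, with Nod1 at 58.3 CPM with TGF-b1 and 132 CPM in CD mock. Many of these genes are near copies of each other, so values of single members are uncertain.

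Several of the genes lower by at least 2-fold were neighbours. Unbroken runs of such tested genes were formed by Gbp8, Gbp9, Gbp4, Gbp10, Gbp6 and Gbp11 on chromosome 5, by Gimap4, Gimap6, Gimap1, Gimap5, Tmem176b, Tmem176a and Aoc1 on chromosome 6, and by 6 genes from H2-Q4 to H2-Q10 on chromosome 17. Others were Ccl9 to Ccl4 on chromosome 11, Serpina3c to Gsc on chromosome 12, and Ahsg, Fetub, Kng2 and Kng1 on chromosome 16. The only run of at least 4 genes higher by at least 2-fold was Hk2, M1ap, Dok1 and Loxl3 on chromosome 6. These runs were named after their values were seen.

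Noncoding and imprinted genes gave a few large changes. Genes with noncoding transcripts only were called in 40.9% of 699, against 69.0% of 13379 genes with a coding transcript. Lncenc1, a long noncoding RNA, had 9.47, 8.87 and 9.44 CPM with TGF-b1, against 0.703, 1.13 and 0.857 CPM in CD mock, and Morrbid averaged 30.99 CPM with TGF-b1 and 10.8 CPM in CD mock. Neat1, the scaffold of nuclear paraspeckles, averaged 152 CPM with TGF-b1 and 259 CPM in CD mock. The median of the 28 long noncoding RNAs of 0.03 log2 was -0.12 with scaling by total counts. Strandedness was not given in the sources used here, so reads of overlapping antisense genes cannot be told apart. Among imprinted genes, Dio3, the thyroid hormone-inactivating deiodinase, had 1.71, 1.95 and 1.55 CPM with TGF-b1, against 51.9, 45.5 and 46.7 CPM in CD mock, H19 averaged 12.4 CPM with TGF-b1 and 4.71 CPM in CD mock, and Mest was lower, at -1.92 log2. Of 26 small RNA host genes, 15 were higher and 3 lower, against 33.4% and 34.2% of all genes.

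**Figure D4:**
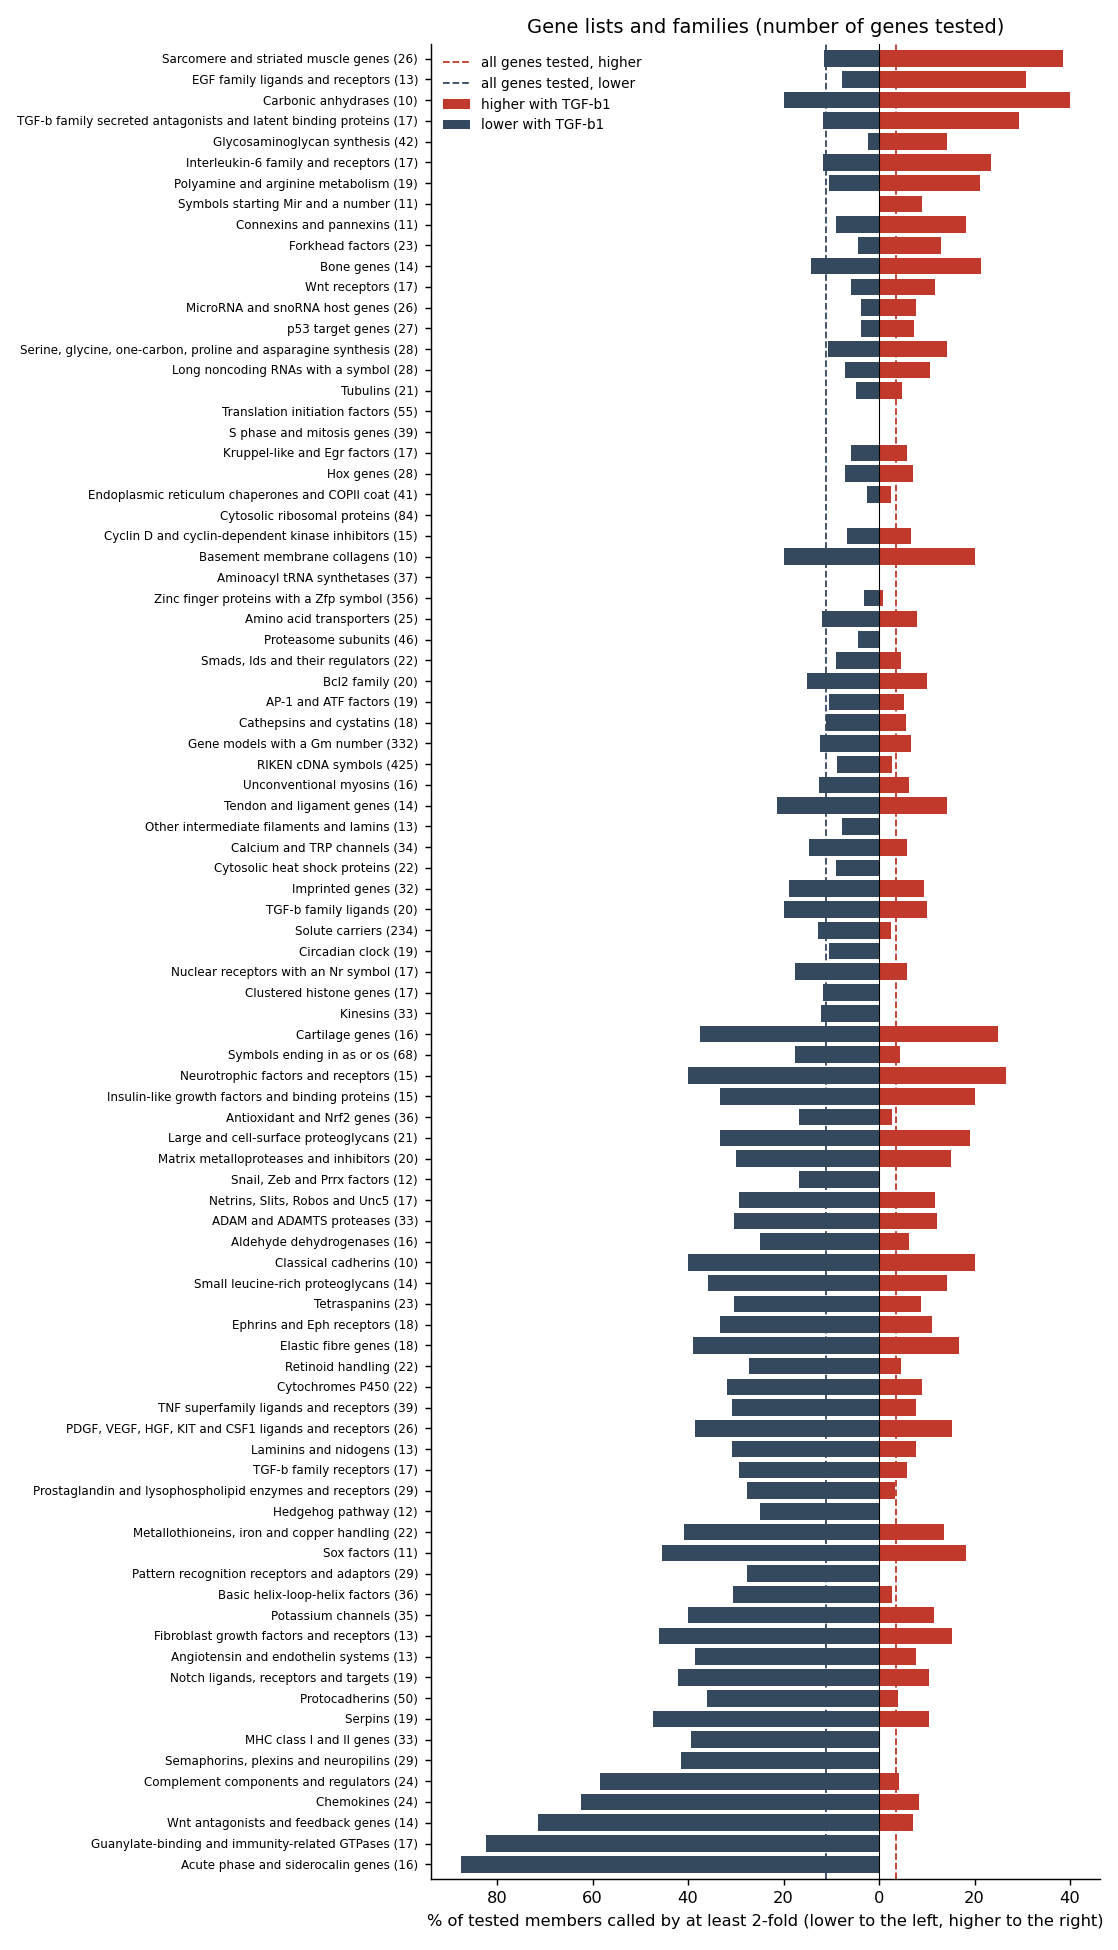
Share of tested members called by at least 2-fold higher (red, to the right) or lower (blue, to the left) with TGF-b1 in 88 gene lists with at least 10 tested genes, with dashed lines at 3.59% and 11.2% for all genes. Acute phase genes, guanylate-binding proteins and Wnt antagonists have the longest blue bars, and ribosomal proteins, translation factors, tRNA synthetases and S phase and mitosis genes have none.

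Transcripts of the same gene also changed in proportion. The deposited counts were given per RefSeq transcript, and the share of a transcript is its percent of the gene's estimated counts. Of 18397 transcripts in genes with at least 2 tested, 52 changed their share by at least 10 points at an adjusted p under 0.05 in diffSpliceDGE of edgeR (0.283%), 14 of them to a higher share (0.0761%). Without the minimum of 10 points the count was 82 (0.446%). The 52 transcripts belonged to 45 genes, and 2 of these genes were not called as a whole. Errors in the division of reads among transcripts are not part of this test. The count without TGF-b1 replicate 1 was 33, and without TGF-b1 replicate 3 it was 31. In 62.2% of the 45 genes the outermost starts of the tested transcripts lay more than 500 bases apart, against 27.7% of all 5956 genes tested. The starts of all tested transcripts entered, whether or not their share changed, so this does not show a change of start. In Cryab both called transcripts had the same start.

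Tspan9, a tetraspanin membrane protein gene, changed its main start site. Transcript NM_001379136, the one with the most downstream start, held 57.5, 52.4 and 60.5% with TGF-b1, against 10.5, 13.8 and 12.2% in CD mock. Transcript NM_175414, from the upstream start, held 15.96, 20.3 and 19.8% with TGF-b1, against 48.5, 36.5 and 39.00% in CD mock. The groups did not overlap in either share, while the gene as a whole averaged 121 CPM with TGF-b1 and 101 CPM in CD mock. Both start regions are printed, since they carry the exchange (RefSeq, GRCm38.p6, 250 bases upstream, 5′ to 3′, no motif marked). The downstream region is chr6:128035063-128035312, minus strand, and the upstream region is chr6:128143579-128143828, minus strand.
Tspan9 downstream start: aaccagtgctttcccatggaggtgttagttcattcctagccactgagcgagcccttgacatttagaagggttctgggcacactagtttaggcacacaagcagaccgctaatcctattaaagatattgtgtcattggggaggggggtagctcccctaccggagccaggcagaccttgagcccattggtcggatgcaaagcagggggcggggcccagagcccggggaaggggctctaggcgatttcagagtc
Tspan9 upstream start: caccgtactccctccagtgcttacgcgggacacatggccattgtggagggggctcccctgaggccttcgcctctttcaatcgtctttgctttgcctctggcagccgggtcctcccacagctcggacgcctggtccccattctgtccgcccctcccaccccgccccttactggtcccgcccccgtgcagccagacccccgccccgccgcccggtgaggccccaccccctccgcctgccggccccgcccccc

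Gsn, which encodes the actin-severing protein gelsolin, lost the share of its most downstream start. NM_146120 held 6.28, 5.23 and 6.73% with TGF-b1, against 34.2, 31.1 and 36.4% in CD mock, so all TGF-b1 libraries lay below all CD mock libraries. NM_001206369, which starts 15636 bases upstream of it, held 22.01, 23.8 and 25.1% with TGF-b1, against 15.1, 14.3 and 15.6% in CD mock, a change of less than 10 points that was not called. The start regions of both lie on chromosome 2, at chr2:35282130-35282379, plus strand, and at chr2:35266494-35266743, plus strand.
Gsn downstream start: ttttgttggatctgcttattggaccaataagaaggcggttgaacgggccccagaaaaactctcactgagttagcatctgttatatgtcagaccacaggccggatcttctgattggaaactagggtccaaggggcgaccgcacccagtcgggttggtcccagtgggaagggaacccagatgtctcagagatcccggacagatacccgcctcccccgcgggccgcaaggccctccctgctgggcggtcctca
Gsn upstream start: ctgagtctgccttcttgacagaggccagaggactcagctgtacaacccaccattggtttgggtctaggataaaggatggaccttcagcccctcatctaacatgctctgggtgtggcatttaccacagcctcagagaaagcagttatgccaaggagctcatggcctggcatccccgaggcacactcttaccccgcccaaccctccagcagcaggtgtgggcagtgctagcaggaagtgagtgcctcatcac

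Tnc, the matrix protein tenascin-C, moved to longer transcripts. Tenascin-C exists in size variants that come from alternative splicing of its fibronectin type III repeats. The shortest transcript, NM_001369214 of 5652 bases, held 46.1, 40.3 and 42.4% with TGF-b1, against 70.5, 70.99 and 70.5% in CD mock. The transcripts longer than this together held 53.9, 59.7 and 57.6% with TGF-b1, against 29.5, 29.0 and 29.5% in CD mock. The mean length weighted by share was 6306 bases with TGF-b1 and 5998 bases in CD mock. Of the 5 transcripts, 4 had the same start and end, so that they differ inside the gene.

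Other transcripts changed in single genes. In Fbln2 (fibulin-2) the longer transcript NM_007992, which has 141 bases more than the other, held 27.1 ± 1.44% with TGF-b1 and 42.1 ± 1.69% in CD mock (SD, n = 3 each). Sh3kbp1, an adaptor of receptor uptake, had NM_001135728, the transcript with the most downstream start, at 65.9 ± 1.77% with TGF-b1 and 41.4 ± 4.62% in CD mock. In Fhl1, a LIM protein of muscle, NM_001077362 held 29.8 ± 3.98% with TGF-b1 and 11.9 ± 4.55% in CD mock. Cryab, a small heat shock protein, had NM_009964 at 32.8 ± 1.17% with TGF-b1 and 53.6 ± 1.36% in CD mock. Crls1, the mitochondrial cardiolipin synthase, had NM_025646 at 4.64 ± 0.809% with TGF-b1 and 24.9 ± 4.55% in CD mock, and Spata13 had NM_001033272 at 37.4 ± 3.697% with TGF-b1 and 13.5 ± 2.39% in CD mock. The call of the Spata13 transcript was lost without any 1 of the 6 libraries (adjusted p 0.0626 to 0.209, diffSpliceDGE). That of Sh3kbp1 was lost without CD mock replicate 2 (adjusted p 0.103) and without TGF-b1 replicate 1 (adjusted p 0.0592). The call of the other Fbln2 transcript was lost without any 1 of 4 libraries, CD mock or TGF-b1 replicate 2 or 3 (adjusted p 0.0552 to 0.104), and with voom and diffSplice of limma (adjusted p 0.598).

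**Figure D5:**
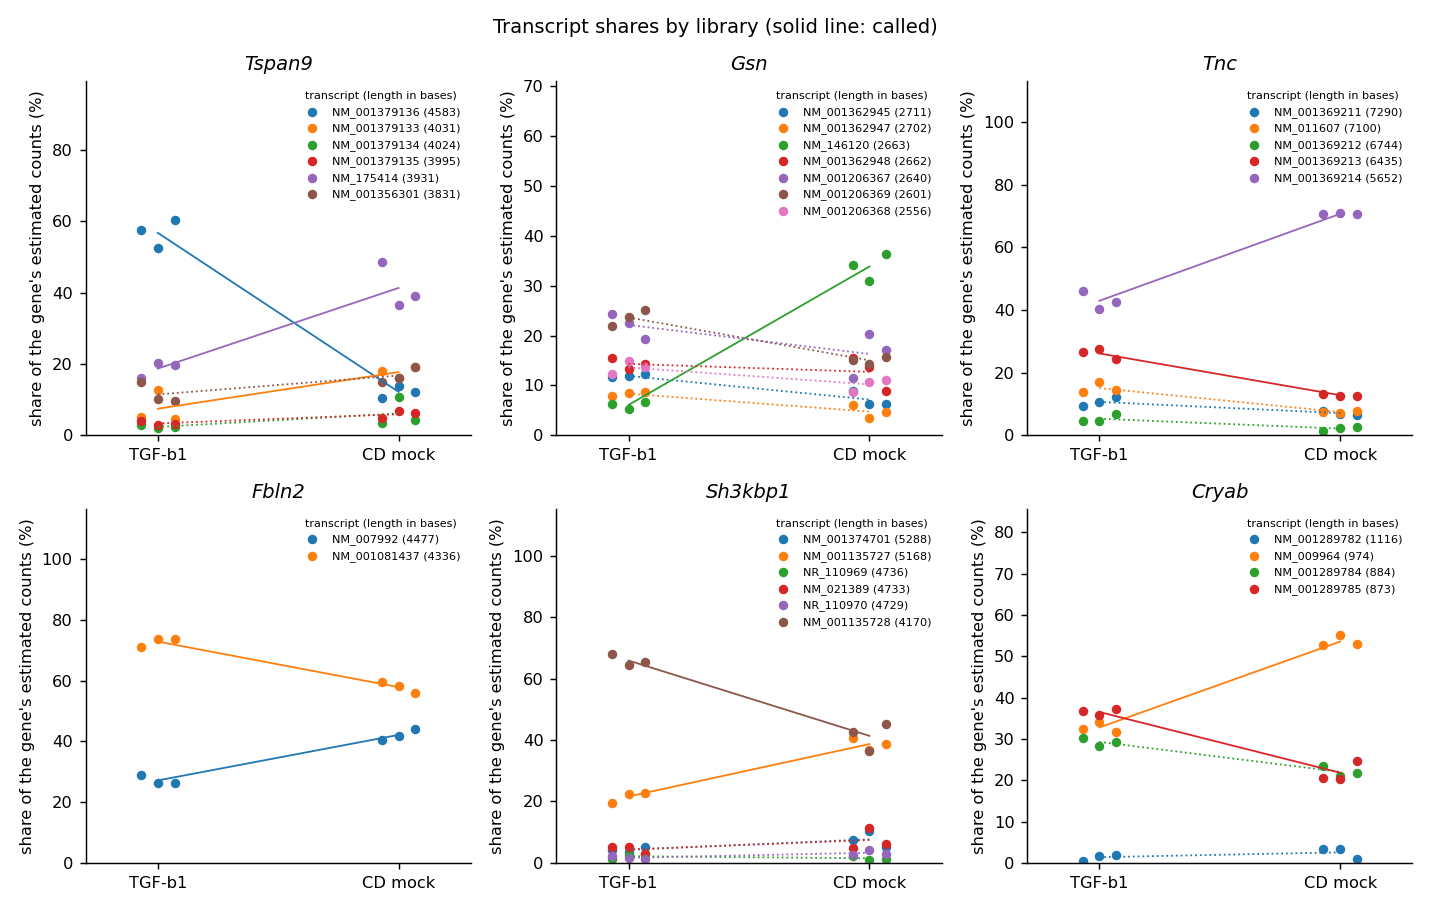
Share of each transcript in the estimated counts of its gene (%, vertical axis) by library for 6 genes, TGF-b1 to the left of CD mock, with lines joining group means, solid where the change was called. In Tspan9 NM_001379136 is at 56.8% with TGF-b1 and 12.2% in CD mock, and in Gsn NM_146120 is at 6.08% with TGF-b1 and 33.9% in CD mock.

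The most changed genes were also read in the other groups of the fit, which share the CD mock and TGF-b1 libraries with this comparison. C1qtnf3 averaged 84.5 CPM with TGF-b1, 0.124 CPM with TGF-b1 and SB431542, 0.2504 CPM in HFD mock and 0.817 CPM in CD mock. Acta1 averaged 213 CPM with TGF-b1, 0.889 CPM with TGF-b1 and SB431542, 13.8 CPM in HFD mock and 4.17 CPM in CD mock. For Hp the levels were 2.89 CPM with TGF-b1, 377 CPM with TGF-b1 and SB431542, 96.99 CPM in HFD mock and 200.4 CPM in CD mock. Angptl7 averaged 0.567 CPM with TGF-b1, 18.6 CPM with TGF-b1 and SB431542, 24.2 CPM in HFD mock and 72.2 CPM in CD mock.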

How the data were processed

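The deposited table holds estimated counts per RefSeq transcript for 12 libraries in 4 groups, made by the authors; fastp, STAR, featureCounts and mm10 are named per the submitters' processing notes, while tool versions, strandedness and the division of reads among transcripts were not given in the sources used here. Messenger RNA was selected with oligo(dT) beads, per the labels' protocols. Here, transcripts were summed by gene symbol and rounded, and depth per library is given above. The quasi-likelihood test of edgeR 4.0.16 (R 4.3.3) was fitted over all 12 libraries with 1 coefficient per group, TMM scaling, filterByExpr and Benjamini-Hochberg adjustment. SEs were derived from the log2 fold change and F of a refit with the trended dispersion kept at 1e-04 or above. In the main fit 3780 of the 14078 genes lay below that floor. Transcript shares were tested with diffSpliceDGE. The tests were checked on simulated counts. DESeq2 1.42.0, limma 3.58.1, other scalings, no filter, fewer libraries and leaving out each replicate were tried.

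Members and gene lists were chosen with earlier results of these data known. Genes were named by rule: per list up to 3 called genes in each direction (no overlap between libraries, 5 CPM or more in 1 group), over all genes the 10 with the largest change in each direction (10 CPM or more), the 5 largest gains and losses in CPM, a few check genes, and the 10 called transcripts with the largest change in share in each direction, 1 per gene and direction. Transcript NM_007992 of Fbln2 and the transcripts of Gsn other than NM_146120 were added after their values were seen, as were the levels of Kdr and Lyz2. Names outside the rule are stated as such or are listed with counts only. Some named genes are not reported here. Sequences were copied from RefSeq tables of GRCm38.p6, where 14068 of the tested symbols were found. P-values of single genes are not printed; the largest adjusted p (edgeR) of the 512 named genes was 0.0465.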

Additional observations from a re-analysis of the deposited data

How the results depend on the processing

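The 9517 called genes numbered 2542 (799 higher, 1743 lower) when a change beyond 1.5-fold was tested with glmTreat. Scaling by total counts called 3068 genes higher and 6691 lower. DESeq2 called 8692 genes, a fit of the 6 libraries alone 9234, no filter 9735 and RLE scaling 9531. Leaving out each replicate gave 8940 to 9194 called genes, 4458 to 4583 higher and 4482 to 4631 lower, and 31 to 56 transcripts. Changed transcripts numbered 18 at a minimum of 20 points and 224 with voom and diffSplice of limma; the cause was not tested. With scaling by total counts Cdh11 turned to -0.0582, Pxdn to -0.0332 and Zeb1 to -0.0022 log2. The replicate block gave 9472 genes and 43 transcripts; same-numbered libraries correlated at -0.012 to -0.0016, and 0 TGF-b1 libraries correlated best with their own number, so the numbers were not taken as pairs. Precision of genes near 1 CPM is limited by depth.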
